A study of Homo sapiens with 5 samples.

Results

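LRG1 and 9 genes of the IL6-STAT3 axis were examined after knockdown of the ETS factor ELK4. The 10 genes were taken by symbol from the expression list: LRG1, the factor STAT3, the receptor chains IL6ST, IL6R and OSMR, the kinases JAK1 and JAK2, and the STAT3 target genes SOCS3, PIM1 and BCL3. All 10 were found among the 20026 genes of the list, and all 10 reached the level set for testing. The cells were HCT116, an established human line from a colorectal carcinoma, stably infected with lentivirus and selected with puromycin. In the control group (pLKO.1, 2 samples) they carried the vector alone, and in the knockdown group (shELK4, 3 samples) each sample carried a different hairpin against ELK4. Poly(A) RNA was sequenced, and the level of a gene is given as FPKM, in which fragments are scaled to transcript length and to the mapped fragments of the sample. The question asked was whether LRG1 follows STAT3 and other STAT3 target genes in each hairpin sample.

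Cytokines of the IL6 family bind a private receptor chain and then the shared chain gp130, the product of IL6ST. The bound JAK kinases phosphorylate STAT3, which dimerizes, enters the nucleus and binds palindromic letters of the form TTCNNNGAA, while its target SOCS3 feeds back on the receptor. LRG1 encodes a secreted glycoprotein with leucine-rich repeats that liver cells release as an acute phase protein, that STAT3 is known to induce, and that acts on endothelial TGF-β signalling through endoglin.

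On GRCh38 (GENCODE release 44), LRG1 (ENSG00000171236) has 2 exons and covers positions 4536402 to 4540036 of chromosome 19, minus strand. The 250 bases before its start are shown because they hold the letters of a STAT site. They lie at chr19:4540037-4540286 on the minus strand (RefSeq, GRCh38.p14), are written 5′ to 3′, and carry the STAT letters in capitals, 162 to 154 bases before the start.
LRG1 promoter: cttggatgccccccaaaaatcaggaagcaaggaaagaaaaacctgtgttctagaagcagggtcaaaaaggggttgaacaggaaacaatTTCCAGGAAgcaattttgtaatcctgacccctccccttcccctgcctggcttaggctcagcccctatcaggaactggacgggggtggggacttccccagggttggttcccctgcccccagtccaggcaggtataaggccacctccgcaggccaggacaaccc

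The STAT letters TTCNNNGAA, and the stricter TTCCNGGAA that they include, were searched on both strands of the 250 bases before each annotated start. Within the windows searched, LRG1 was the only 1 of the 10 genes with either of them. For SOCS3 the windows were chr17:78359668-78359917 and chr17:78360926-78361175 (RefSeq, minus strand). They leave out the bases directly before its GENCODE start at position 78360077, so letters there would not be found. The same holds for BCL3, whose window was chr19:44748458-44748707 (RefSeq, plus strand) and whose GENCODE start is at position 44747705. Among 35116 promoters of all genes, 6.57% held the first form and 0.968% the stricter form. The ETS letters CCGGAAGT, present in 3.42% of all promoters, were found for JAK1 alone of the 10 genes. The GC box CCCCGCCCC, present in 15.1%, was found for BCL3, IL6ST, JAK1 and PIM1. Neither was found in the LRG1 window, which says only that these letters are not in it. Of 31 genes on a list of STAT3 targets that had a promoter sequence, 3 held the STAT letters in the windows searched (8.11% of their 37 promoters). The stretches around them (15 bases on each side, letters in capitals) are shown because the levels of these 3 genes are compared further on.
LRG1, chr19:4540175-4540213, minus strand: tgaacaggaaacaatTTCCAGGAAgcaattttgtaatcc
ICAM1, chr19:10271030-10271068, plus strand: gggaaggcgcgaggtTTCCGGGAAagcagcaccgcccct
IRF1, chr5:132490874-132490912, minus strand: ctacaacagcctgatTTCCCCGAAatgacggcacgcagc
LRG1 and ICAM1 hold the stricter form, and IRF1 the looser form alone.

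ELK4 was at 8.62 and 7.6 FPKM in the controls, and at 3.14, 2.82 and 2.44 FPKM with hairpins 1, 2 and 3. The samples had similar depth: relative to the first control it was 89.8% to 96.3% in the other 4, read from the step that 1 fragment makes in low FPKM values. The epithelial markers EPCAM, KRT8, KRT18, KRT19 and CDH1 were at 1 FPKM or more in every sample, while the endothelial and hepatocyte markers (3 of 3 in each list) were below 1 in every sample. Of the intestinal markers CDX2 was at 3.51 to 5.09 FPKM, VIL1 was near 0 and CDX1 was listed at 0 throughout. In the immune and fibroblast lists 2 of 3 markers were below 1 in every sample, the others being CD68 (5.23 to 14.1 FPKM) and COL1A1 (3.1 to 4.21 FPKM). Across tested genes the SD of the log2 difference was 0.269 to 0.313 between any 2 knockdown samples, against 0.117 between the 2 controls. Between a control and a knockdown sample it was 0.290 to 0.319, so the hairpin samples differed from each other about as much as from the controls.

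LRG1 was low with every hairpin, but to unequal degrees. Its level was 2.59 and 2.67 FPKM in the controls, then 0.797 in shELK4_1, 0.493 in shELK4_2 and, lowest, 0.131 in shELK4_3. The controls were nearly alike and every knockdown sample lay below both. These levels correspond to 30.3%, 18.7% and 4.97% of the control mean in shELK4_1, shELK4_2 and shELK4_3. The mean of the controls was 2.63 ± 0.0507 FPKM (SD, n = 2), that of the knockdown samples 0.473 ± 0.333 FPKM (SD, n = 3). On the log2(FPKM + 1) scale, where changes at low levels appear smaller than they are, the difference was −1.33 (SE 0.19), with an adjusted p of 0.0704 in limma over all 10780 tested genes. LRG1 therefore missed the limit of 0.05, at which 18 genes (0.167%) were called. It ranked 8 from the lowest of the 10780 differences, and with a pseudocount of 0.1 its difference was −2.46 (SE 0.54, adjusted p = 0.124 in limma). With a variance weight for each group, estimated over all genes rather than for LRG1, the same difference had an adjusted p of 0.00761 in limma.

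Only 1 tested gene in shELK4_3 was at or below the percent of control that LRG1 reached there, namely LRG1 itself (0.00928% of tested genes). In shELK4_2 the number was 7 (0.0649%), and in shELK4_1 it was 16 (0.148%). LRG1 reached the level for testing through its 2 control samples alone. Its knockdown values rest on few fragments: with a transcript of 2605 bases and roughly 27400000 mapped fragments, an estimate from the low FPKM values, about 185 and 175 fragments stood behind the control values, 55 and 32 behind shELK4_1 and shELK4_2, and 8 behind shELK4_3, where the range of the estimate was 5 to 15. The order of LRG1 between shELK4_2 and shELK4_3, 3.78-fold apart, is thus less certain than its difference from the controls. Of the exonic bases of LRG1, 2.11% are shared with a readthrough gene on the same strand.

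STAT3, the factor that carries the cytokine signal, did not follow LRG1 across the hairpins. It was at 16.9 and 16.4 FPKM in the controls, 16.4 in shELK4_1, 5.41 with shELK4_2 and 14.5 in shELK4_3. The shELK4_1 sample lay at the level of the controls and shELK4_3 a little below them, while shELK4_2 was far below all others. These levels are 98.7%, 32.5% and 86.9% of the control mean. The controls averaged 16.6 ± 0.362 FPKM (SD, n = 2), and the knockdown samples 12.1 ± 5.88 FPKM (SD, n = 3). The log2 difference of −0.56 (SE 0.41, adjusted p = 0.525 in limma) was within the spread between the hairpins, and without shELK4_2 it was −0.10.

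The low STAT3 level belonged to 1 sample, and so has no replicate. In shELK4_2, 38 tested genes (0.353%) were at or below the percent of control of STAT3. STAT3 was among 58 tested genes (0.538%) at 50% of control or less in shELK4_2 and at 80% or more in the other hairpin samples. CBL, a ubiquitin ligase gene of the negative regulator list named here after its values were seen, lay just outside that range, at 4.91 FPKM in shELK4_2 against 10.6 and 10.2 in the other hairpin samples and 9.44 and 9.51 in the controls.

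As a ratio of FPKM, LRG1 to STAT3 was 0.154 and 0.163 in the controls, 0.0485 in shELK4_1, 0.0912 with shELK4_2 and 0.00903 in shELK4_3. LRG1 was thus further below STAT3 than in the controls in all 3 hairpin samples, least so in shELK4_2. The mean log2 difference of this ratio was −2.21, with p = 0.2 in an exact two-sided permutation test, the smallest that 2 against 3 samples allow. The scale of the test across genes, with 1 added to each FPKM, gave another reading of shELK4_2. On that log2(FPKM + 1) scale LRG1 minus STAT3 was −2.32 and −2.25 in the controls, −3.28 in shELK4_1, −2.10 with shELK4_2 and −3.77 in shELK4_3. The shELK4_2 value then lay just above both controls, and the mean difference was −0.77 (exact two-sided permutation p = 0.6). It was −1.24 without shELK4_2, −0.41 without shELK4_3, and −1.85 with a pseudocount of 0.1, at which the groups were separate (exact permutation p = 0.2).

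Against each of the other 8 genes, LRG1 was further down in every knockdown sample than in either control. On the log2(FPKM + 1) scale the differences of the log2 ratio ran from −1.14 for JAK1 to −1.63 for IL6R, each with p = 0.2 in the exact permutation test, the smallest it allows, in a family of 10 ratios. As a ratio of FPKM, LRG1 to ELK4 was 0.301 and 0.351 in the controls and 0.254, 0.175 and 0.0535 in the hairpin samples. LRG1 was lower relative to ELK4 in every knockdown sample (log2 difference −1.28, exact permutation p = 0.2). On the log2(FPKM + 1) scale the groups overlapped instead, with a difference of −0.06 (exact permutation p = 1). LRG1 and ELK4 had the same order of the hairpin samples, from shELK4_1 down to shELK4_3. That order with all 3 samples below the controls was found in 322 tested genes (2.99%), and in no other of the 10 genes.

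**Figure D1:**
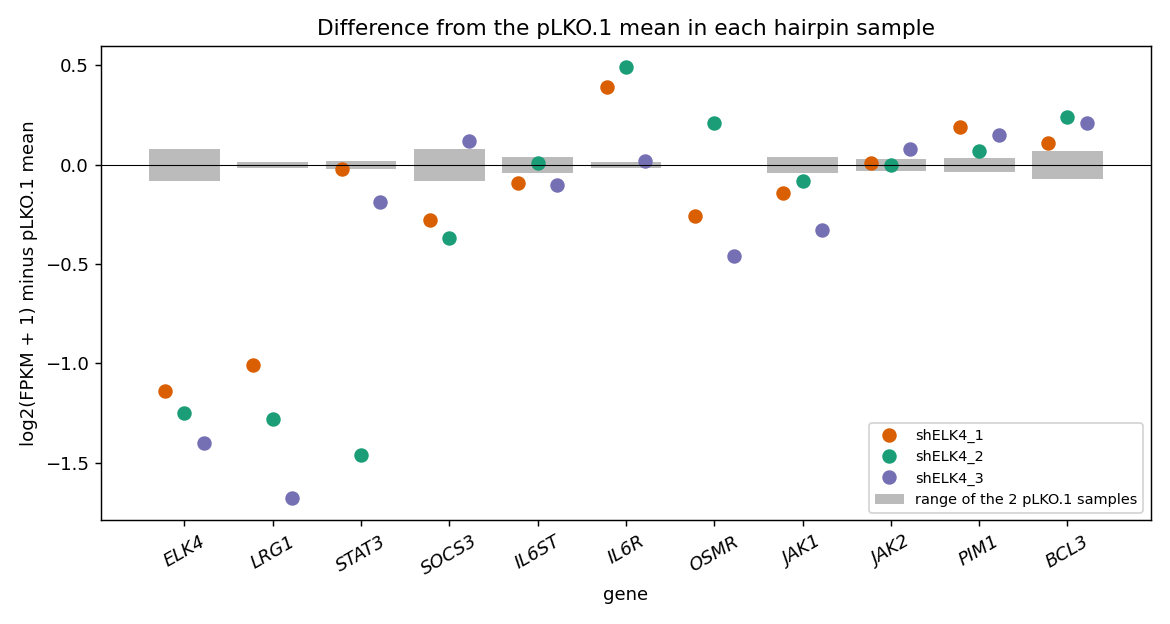
Difference of log2(FPKM + 1) from the pLKO.1 mean (vertical axis) for ELK4 and the 10 genes (horizontal axis) in each hairpin sample (points), with the range of the 2 pLKO.1 samples in grey. ELK4 and LRG1 step down from shELK4_1 to shELK4_3, STAT3 reaches −1.46 in shELK4_2 and −0.02 in shELK4_1, and the remaining genes stay within 0.5 of the control mean.

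The receptor chains showed no common direction. IL6ST, the shared signalling chain gp130, was at 6.91 and 6.48 FPKM in the controls and at 6.23, 6.75 and 6.2 in shELK4_1, shELK4_2 and shELK4_3. Its groups overlapped, and its log2 difference was −0.06 (SE 0.09, adjusted p = 0.784 in limma), the smallest spread among the 10 genes, with 1.11-fold between the highest and the lowest sample. IL6R, the chain that binds IL6, was at 4.29 and 4.17 FPKM in the controls, 5.87 in shELK4_1, 6.34 with shELK4_2 and 4.31 in shELK4_3. All 3 knockdown samples were above both controls, but shELK4_3 by very little, and the difference of 0.30 (SE 0.15) had an adjusted p of 0.374 in limma. OSMR, which pairs with gp130 for oncostatin M, was at 8.75 and 8.76 FPKM in the controls and at 7.17, 10.3 and 6.09 in the hairpin samples. The 3 hairpin samples lay on either side of the controls, with shELK4_2 above and the others below (difference −0.17, SE 0.19, adjusted p = 0.704 in limma). With an opposite-strand gene IL6ST shares 8.83% of its exonic bases, and whether strand was kept in counting is not given in the sources used here.

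The kinases stayed near their control levels. JAK1, the main kinase at gp130, was at 14.5 and 13.7 FPKM in the controls and at 12.7, 13.3 and 11 in the hairpin samples. Every knockdown sample was below both controls, and the difference of −0.18 (SE 0.11) had an adjusted p of 0.436 in limma. JAK2, a second kinase of the pathway, was at 1.97 and 2.09 FPKM in the controls and at 2.05, 2.03 and 2.19 in the hairpin samples. Its groups overlapped and its difference was 0.03 (SE 0.09, adjusted p = 0.903 in limma), a value whose sign changed with quantile normalization (−0.02).

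The 3 STAT3 target genes among the 10 did not share the course of LRG1 or of STAT3. SOCS3, the feedback inhibitor of gp130 signalling, was at 7.25 and 8.22 FPKM in the controls, 6.19 in shELK4_1, 5.76 with shELK4_2 and 8.48 in shELK4_3. It was thus lowest where STAT3 was lowest and highest where LRG1 was lowest, with overlapping groups (difference −0.18, SE 0.16, adjusted p = 0.624 in limma). PIM1, a serine/threonine kinase of cell survival, was at 9.79 and 10.3 FPKM in the controls and at 11.6, 10.6 and 11.2 in the hairpin samples. All 3 knockdown samples lay above the controls, in shELK4_2 narrowly (difference 0.14, SE 0.09, adjusted p = 0.487 in limma). BCL3, a nuclear partner of NF-κB, was at 0.776 and 0.961 FPKM in the controls and at 1.01, 1.2 and 1.16 in the hairpin samples, a difference of 0.18 (SE 0.10, adjusted p = 0.415 in limma). BCL3 reached the level for testing through the knockdown samples alone.

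Over the 10 genes, limma called 0 after adjustment, and 1, LRG1, had an unadjusted p under 0.05, as had 16.2% of all tested genes. The groups did not overlap with knockdown lower in 2 of the 10 (LRG1 and JAK1, 21% of all tested genes) and with knockdown higher in 3 (IL6R, PIM1 and BCL3, 19.1%). The median log2 difference was −0.113, against −0.009 over all tested genes. By hairpin, 5 of the 10 were below both controls in shELK4_1 (44.7% of all tested genes), 4 in shELK4_2 (47.3%) and 5 in shELK4_3 (41.9%). These shares are close to those of all tested genes. The sample with the lowest level among the hairpins was shELK4_2 for 4 of the 10 genes (39.9% of all tested genes).

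In the controls the levels of the 10 genes, per transcript length, ran in the order STAT3, JAK1, PIM1, OSMR, SOCS3, IL6ST, IL6R, LRG1, JAK2 and BCL3, from a mean of 16.6 to 0.868 FPKM. The 2 controls of each gene lay apart from those of its neighbours in this order. LRG1 was thus among the 3 lowest genes before knockdown. From the highest to the lowest sample it spanned 20.4-fold, STAT3 3.12-fold and the other 8 genes between 1.11-fold and 1.69-fold. In bulk RNA, a lower level in every cell and fewer cells with a high level cannot be told apart.

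The cytokines of the IL6 family were measured at widely different levels. LIF, which signals through gp130 and LIFR, was at 7.9 and 7.98 FPKM in the controls and at 10.6, 7.58 and 7.72 in the hairpin samples, with overlapping groups (adjusted p = 0.79 in limma). IL6 was listed at 0 in 4 samples and at 0.013 FPKM in 1 control, OSM was listed at 0 in 4 samples, and IL27 in all 5. IL11 was at 0.715 and 1.03 FPKM in the controls and at 0.425, 0.41 and 0.836 in the hairpin samples, below the level for testing.

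CLCF1, a cardiotrophin-like cytokine, was at 5.39 and 7.56 FPKM in the controls and at 4.36, 3.01 and 2.96 in the hairpin samples. Besides LRG1 it was the only tested gene of the pathway lists that was lower in all hairpin samples in the order of LRG1 (difference −0.75, adjusted p = 0.14 in limma). These 2 of 65 tested pathway genes stand beside 2.99% of all tested genes, a like share. EBI3, a subunit shared by IL27 and IL35, was at 2.6 and 2.44 FPKM in the controls and at 1.33, 2.08 and 0.491 in the hairpin samples, all lower (adjusted p = 0.304 in limma). CTF1, cardiotrophin 1, was on the contrary higher in every knockdown sample, at 0.314 and 0.659 FPKM against 1.14, 1.29 and 1.22 (adjusted p = 0.119 in limma). CTF1 reached the level for testing through the knockdown samples alone, so its place in the counts of higher genes follows in part from that limit.

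The lists of the pathway held 108 genes, each counted once, of which 65 could be tested. Limma called 0 of them, and at an unadjusted p under 0.05 there were 3 higher and 8 lower, 11 of 65, beside 16.2% of all tested genes. The groups did not overlap in 13 genes with knockdown lower (21% of all tested genes) and in 11 with knockdown higher (19.1%), so that the pathway as a whole was near the background. Of the 9 receptor genes 8 were tested, with 0 at an unadjusted p under 0.05 in limma and overlapping groups in 7.

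Of 18 negative regulators 16 were tested, with 1 higher and 1 lower at an unadjusted p under 0.05 in limma, beside 16.2% of all tested genes. SOCS1, an inhibitor of JAK kinases, was at 3.7 and 3.62 FPKM in the controls, 9.8 in shELK4_1, 9.33 with shELK4_2 and 5.31 in shELK4_3. All knockdown samples were above the controls, with a difference of 0.93 and an adjusted p of 0.144 in limma. PTPN2, a phosphatase that acts on JAK1 and STAT3, was at 5.11 and 5.69 FPKM in the controls and at 4.21, 3.97 and 4.45 in the hairpin samples (difference −0.30, adjusted p = 0.226 in limma). The related inhibitor SOCS3 thus did not share the course of SOCS1.

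A list of 43 STAT3 target genes, with 32 tested, was read hairpin by hairpin. Without the genes that are among the 10, it held 25 tested genes. In shELK4_1, where STAT3 was at the control level, 9 of the 25 were below both controls (44.7% of all tested genes) and 12 above, with a median log2 difference of 0.054. In shELK4_2, where STAT3 was at 32.5%, 12 were below (47.3% of all tested genes) and 11 above, with a median of −0.064. In shELK4_3, 16 were below (41.9% of all tested genes) and 9 above, with a median of −0.117. Over all tested genes the medians were −0.010, −0.022 and 0.012. The share below both controls was thus under that of all tested genes in shELK4_1, near it in shELK4_2, where STAT3 was low, and above it in shELK4_3, with medians close to 0 in each. STAT3 mRNA was read here, not its phosphorylation.

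LRG1 was the only 1 of the 32 targets at 50% of control or less in shELK4_1 (0.844% of all tested genes). In shELK4_3 it was joined by LCN2 (2 of 32, beside 1.09% of all tested genes). In shELK4_2 it was joined by CCND1, ICAM1, LCN2 and STAT3, which regulates its own gene (5 of 32, beside 1.6%). Both counts include LRG1 itself, and the latter also STAT3, whose low level had singled out that sample. Once the 10 genes are set aside, CCND1, ICAM1 and LCN2 remain for hairpin 2 (3 of 25). LCN2 alone remains for hairpin 3 (1 of 25), and 0 genes for hairpin 1. LCN2, the acute phase protein lipocalin 2, was at 2.33 and 2.36 FPKM in the controls and at 1.56, 0.486 and 0.531 in the hairpin samples. All 3 were below the controls, with shELK4_1 the highest as for LRG1 (difference −0.89, adjusted p = 0.165 in limma). CCND1, cyclin D1, was at 370 and 376 FPKM in the controls and at 196, 150 and 217 in the hairpin samples, also lower in each (difference −1.01, adjusted p = 0.0743 in limma). TIMP1, a metalloproteinase inhibitor, was at 99.4 and 101 FPKM in the controls and at 53, 84.7 and 54.4 in the hairpin samples. It was nearest to the controls in shELK4_2, the sample with low STAT3 (difference −0.67, adjusted p = 0.201 in limma). KLF4, a zinc finger factor of the gut epithelium, was higher in every knockdown sample, at 9.67 and 10.6 FPKM without a hairpin and 23.3, 15 and 16.2 with the 3 hairpins (difference 0.76, adjusted p = 0.138 in limma).

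The 3 targets with STAT letters in the windows searched took 3 different courses. ICAM1, an adhesion receptor for leukocytes, was at 4.5 and 4.28 FPKM in the controls, 2.59 in shELK4_1, 1.35 with shELK4_2 and 3.45 in shELK4_3. It was lower in every knockdown sample and lowest in shELK4_2, as STAT3 was (difference −0.69, adjusted p = 0.26 in limma). IRF1, an interferon-responsive factor, was at 3.49 and 3.58 FPKM in the controls and at 3.46, 3.62 and 3.73 in the hairpin samples, with overlapping groups (difference 0.02, adjusted p = 0.931 in limma). LRG1 was lowest in shELK4_3, although it shares the stricter letters with ICAM1.

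**Figure D2:**
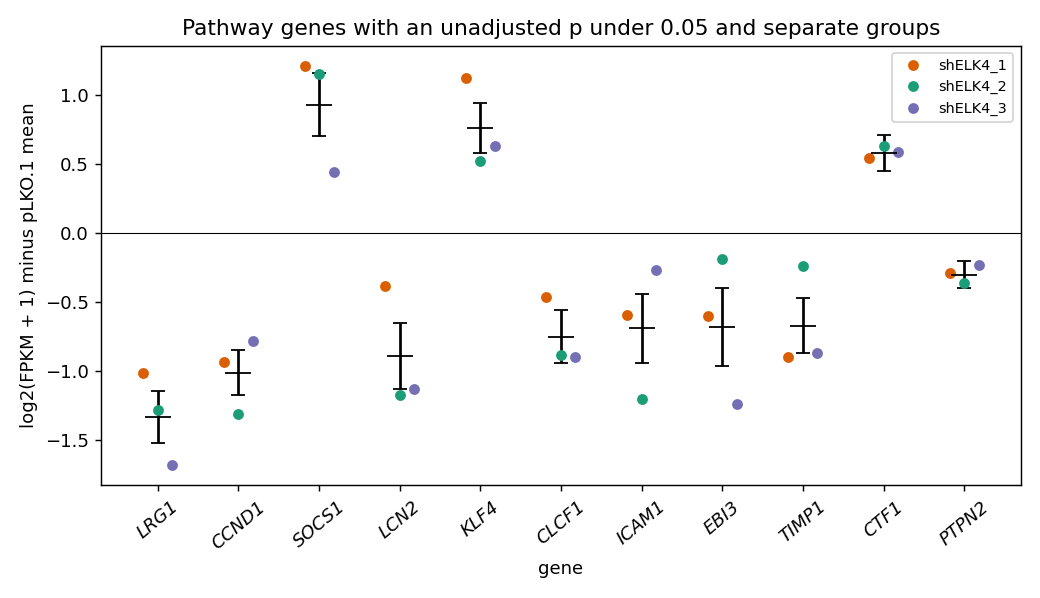
Difference of log2(FPKM + 1) from the pLKO.1 mean (vertical axis) for the 11 pathway genes with an unadjusted p under 0.05 and separate groups (horizontal axis), with points for the hairpin samples and bars for the fitted difference ± SE. LRG1 has the largest difference, −1.33, and the hairpin with the largest effect varies from gene to gene.

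The acute phase list, to which LRG1 belongs, was mostly silent: 22 of its 24 genes were below the level for testing and 6 were listed at 0 in all samples, with LRG1 and LCN2 the exceptions. Among 10 genes of the receptors and SMAD factors on which LRG1 is known to act, ENG, which encodes endoglin, was at 0.0673 FPKM or less in every sample. TGFBR2, the type II TGF-β receptor, was at 7.23 and 7.1 FPKM in the controls and at 5.89, 8.94 and 5.3 in the hairpin samples. Of the 8 tested, 1 had an unadjusted p under 0.05 in limma, beside 16.2% of all tested genes. This was SMAD3, which relays TGF-β signals, at 20.9 and 19.8 FPKM in the controls and at 16, 18.5 and 13.9 in the hairpin samples (adjusted p = 0.285 in limma). SMAD3 was lower in all 3 (as were 21% of all tested genes), and lowest in shELK4_3, as LRG1 was. The lowest hairpin sample was shELK4_3 for 3038 of the 10780 tested genes.

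The next gene on each side of LRG1 on chromosome 19 did not share its low level. SEMA6B, the next gene at higher coordinates, was at 15.6 and 17.7 FPKM in the controls and at 24.3, 21 and 28.9 in the hairpin samples, higher in each (adjusted p = 0.165 in limma). PLIN5, the next at lower coordinates, was at 0.983 and 0.899 FPKM in the controls and at 1.3, 1.3 and 1.55 in the hairpin samples, also higher (adjusted p = 0.234 in limma). PLIN5 reached the level for testing through the knockdown samples alone. Of the 3 nearest genes on each side, 5 were tested, with differences from −0.24 for MYDGF to 0.54 for SEMA6B. PLIN4, below the level for testing, was at 0.322 and 0.335 FPKM in the controls. It was between 0.261 and 0.283 FPKM in the knockdown samples, lower in each.

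The 5 tested genes whose log2 values lay nearest to those of LRG1 over the 5 samples, each taken from its control mean, were TNNC1 (Euclidean distance 0.325), ELK4 (0.336), CDKN1A (0.389), GPRC5A (0.563) and TMEM59L (0.619). TNNC1, a troponin gene, was at 4.91 and 5.35 FPKM in the controls and at 2.2, 1.85 and 1.28 in the hairpin samples. CDKN1A, which encodes the cell cycle inhibitor p21, was at 365 and 372 FPKM in the controls and at 165, 145 and 147 in the hairpin samples. Neither STAT3 nor any other of the 10 genes was among these 5. The likeness depends on the 1 added to FPKM, which compresses the low values of LRG1: with a pseudocount of 0.1 ELK4 ranked 8 and CDKN1A 22, and TNNC1 alone of the 5 stayed within the first 5, at a distance of 1.87. The likeness rests on the same 5 samples in which LRG1 was low, and is given as a description.

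The labels do not say whether the samples came from separate cultures, so the p-values measure the spread between these samples alone, and no test is possible for a single hairpin. The controls carry a vector without a hairpin, so that the presence of a hairpin and the loss of ELK4 cannot be told apart in the group comparison. The summed level of the 5 epithelial markers was 2610 to 2660 FPKM in the controls and 1480 to 1990 in the knockdown samples. Its part in the low LRG1 level was not tested.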

How the data were processed

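Poly(A) RNA of 5 HCT116 samples was sequenced, and the authors deposited FPKM values per gene, calculated with Cufflinks. The submitters' processing notes name Trimmomatic 0.36, HISAT2 2.0.5, Cufflinks 2.2.1 and HTSeq 0.9.1, without the role of each. The genome build and the annotation are not given in the sources used here, so coordinates are from GENCODE release 44 and RefSeq on GRCh38, and the authors' gene models may differ from these. Of 20030 entries, 4 with repeated names were dropped, and 23 names had become dates.

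Genes that reached 1 FPKM in 2 or more samples (10780) were fitted on log2(FPKM + 1) with limma 3.58.1 in R 4.3.3 (linear model, trended empirical Bayes, 2 controls against 3 knockdown samples), with Benjamini-Hochberg adjustment over all tested genes and a limit of 0.05. Single ratios were compared by exact permutation. FPKM holds no read counts, so edgeR and DESeq2 were not used. In low values the step of 1 fragment gave the relative depth, and, for 485 of 1377 low genes and within a tolerance of 0.08, an absolute depth of 27400000 fragments (10th to 90th percentile 16600000 to 48100000). This takes the smallest step of a gene as 1 fragment. Fragment numbers show counting depth only and rest on GENCODE lengths.

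Samples were grouped by their labels. The 10 genes and the pathway lists were chosen with earlier results of these data known. The genes named are the 10, ELK4, the IL6 family ligands by level, pathway genes with an unadjusted p under 0.05 and separate groups (at most 20), the 5 nearest to LRG1 over the samples, and the 3 nearest genes on each side, except items not reported here. CBL, IRF1, TGFBR2 and ENG were added after their values were seen. Both groups have replicates numbered 1 and 2. The deviations of same-numbered samples correlated at 0.078 and 0.023, and the numbers are those of different hairpins, so they were not taken to pair the samples. The fit was tested on simulated data. Alternatives were a pseudocount of 0.1 (for ratios also none, added after seeing the data), no FPKM limit, median-of-ratios scaling and quantile normalization. Further ones were the replicate block, a variance weight per group shared by all genes, and each sample left out.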

Additional observations from a re-analysis of the deposited data

How the results depend on the processing

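LRG1 and STAT3 kept their direction under every alternative run. With a pseudocount of 0.1 LRG1 was −2.46 (adjusted p = 0.124 in limma), and as samples were left out in turn LRG1 lay between −1.48 and −1.15 and STAT3 between −0.83 and −0.10. Where 1 control was left out, the lone control was assumed to vary like the other samples. The LRG1 to STAT3 log2 ratio (−0.77, exact permutation p = 0.6) ran from −1.24 to −0.41 in the same way, and was −0.79 with quantile normalization (p = 0.6 in the exact permutation test), −1.85 with a pseudocount of 0.1, and −2.21 with none, a setting chosen after seeing the data (p = 0.2 in the exact permutation test for both, with separate groups). With a variance weight for each group, shared by all genes, LRG1 passed the limit (−1.33, adjusted p = 0.00761 in limma). The genes called were then 1 of the 10 in place of 0, 6 pathway genes in place of 0, and 413 in all in place of 18. Without the FPKM limit 0 genes in all were called by limma, with 2270 at an unadjusted p under 0.05. As samples were left out, the number of all genes called ran from 0 to 95, the latter without shELK4_2. It was 0 without either control or shELK4_1, and 1 without shELK4_3. The number of pathway genes called ran from 0 to 2, with 2 without shELK4_2. The cause of these shifts was not tested. With the replicate block 1 pathway gene, SOCS1, was called and no other call among the 10 or the pathway genes changed. In that fit shELK4_3 was alone in its block and added nothing to any difference. LRG1 was −1.15 (adjusted p = 0.0576 in limma), the same difference as with shELK4_3 left out. JAK2 changed sign with quantile normalization (−0.02) and without the first control (−0.00, in a range up to 0.06 as samples were left out). The median of all tested genes moved by less than 0.02 under either scaling. FPKM near 0.1, as for LRG1 in shELK4_3, rests on few fragments.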

Other observations

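Further genes of the pathway lists lay below the level for testing and are given as values, chosen after they were seen. SERPINA1, the acute phase gene of alpha-1 antitrypsin, was at 0.357 and 0.319 FPKM in the controls, 0.218 in shELK4_1, 0.179 with shELK4_2 and 0.155 in shELK4_3. Like LRG1 it was lower in each knockdown sample and lowest in shELK4_3. Not all acute phase genes below that level did the same. HPX was at 0.158 and 0.255 FPKM in the controls and at 0.429, 0.172 and 0.371 in the hairpin samples, with overlapping groups. SERPINA3, the acute phase gene of alpha-1 antichymotrypsin, was at 0.111 and 0.0969 FPKM in the controls and at 0.0229, 0.0491 and 0.0242 in the hairpin samples, lower in each but highest of the 3 in shELK4_2. CISH, a SOCS family inhibitor, was higher in each knockdown sample, at 0.594 and 0.615 FPKM without a hairpin and 0.967, 0.959 and 0.961 with the 3 hairpins. STAT5B, another STAT gene, was at 0.656 and 0.757 FPKM in the controls and at 0.981, 0.885 and 1.12 in the hairpin samples. It thus did not share the low level of STAT3 in shELK4_2. None of these differences was tested.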
